A study of Rattus norvegicus with 8 samples.

Results

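Genes of the unfolded protein response and of the amino acid response were followed in cultured cells from the healing femoral fracture of Sprague Dawley rats. The 35 genes were taken by symbol and comprise 24 genes of the endoplasmic reticulum (ER members) and 11 genes of the Atf4 branch (Atf4-type members). In all, 34 of the 35 were listed in each of the 8 count tables, out of 12282 genes listed in any table. Derl2 was not listed in any of them, which is not a level of 0. Every listed gene had a UMI (unique molecular identifier, 1 captured transcript) in at least 5 cells. Why Derl2 is missing is not given.

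The groups were CGRP, magnesium, zoledronate and control, each with 1 library at week 12 and 1 at week 4 after fracture. Per the labels, control rats were untreated, and zoledronate rats received zoledronate, a bisphosphonate that blocks bone resorption, under the skin at 0.3 mg/kg each week for 12 weeks before the fracture. The CGRP and magnesium groups received zoledronate as well, with CGRP (calcitonin gene-related peptide, a neuropeptide) or magnesium on top. Nails of stainless steel or with magnesium are named, but not which group had which, nor the dose or route of CGRP, the age or sex of the rats, or how many rats stand behind a library. Collagenase A released the cells from the callus over 4 h, and 24 h in a culture dish followed before sequencing, so the values describe cells that survived digestion and culture. With 1 library per group there is no replicate, and a difference below is a difference between 2 libraries.

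Secreted and membrane proteins fold in the ER with the help of chaperones, and unfolded protein there activates the sensors Ern1, Eif2ak3 and Atf6. Ern1 splices the Xbp1 transcript and Atf6 is cut to release a transcription factor, and both routes raise chaperones and the machinery of ER-associated degradation, which removes misfolded protein. Eif2ak3, like the amino acid sensor Eif2ak4, slows translation and favours synthesis of Atf4, a transcription factor that turns on genes for amino acid supply, serine and one-carbon metabolism, and stress feedback. Cells that lay down callus secrete much collagen and depend on this machinery. The values below are transcript levels only: splicing of Xbp1, cutting of Atf6 and translation of Atf4 were not measured.

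The response elements of both branches are short and can be read in the promoters. Because the members were chosen as known genes of these responses, matches among them are a description and no independent support. The 250 bases before each RefSeq gene start in the rat assembly GRCr8 were searched on both strands, and 19 of the 24 ER members and 11 of the 11 Atf4-type members had a promoter matched by symbol. The ER stress response element, written as CCAAT, then 9 bases of any kind, then CCACG, was found in 22 of 33469 promoters (0.0657%), and 7 of those belong to ER members: Hspa5, Hsp90b1, Calr, Canx, Dnajc3, Creld2 and Xbp1. Hsp90b1 had 2 such matches. The second form of this element, ATTGG, then 1 base, then CCACG, was found in 14 promoters (0.0418%), among them Herpud1 and Hyou1. The unfolded protein response element TGACGTGG was found in 174 promoters (0.520%), of members in Hyou1 alone, where it overlaps a match of the second form. The element bound by Atf4 with Cebp partners, TGATGNAA, was found in 1139 promoters (3.40%), and of the members in Trib3, Chac1 and Herpud1. None of the 11 Atf4-type promoters held either form of the ER stress element. A match describes letters and not a bound site, and the lack of a match says only that these letters are not in this window.

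The stretches below are shown because Creld2, Trib3, Chac1 and, under some scalings, Herpud1 carry differences between libraries described further on, Hspa5 and Calr are among the members with the highest correlations between cells, and Xbp1 is a factor of the response itself. The Hspa5 stretch lay at chr3:38452953-38453011 on the plus strand, and its match ran from 43 to 25 bases before the gene start. The Calr stretch lay at chr19:40213117-40213173 on the plus strand, with the match 232 to 214 bases before the start. For Creld2 the stretch was chr7:121789219-121789277 on the plus strand, and the match ran from 145 to 127 bases before the start. The Xbp1 stretch was chr14:84604538-84604596 on the plus strand, with the match at 65 to 47 bases. Herpud1 had its match at 124 to 114 bases, in chr19:10614801-10614851 on the minus strand. The Trib3 stretch was chr3:161275534-161275574 on the minus strand, with the match at 21 to 14 bases, and the Chac1 stretch was chr3:126795944-126795991 on the plus strand, with the match at 167 to 160 bases. Each is read 5′ to 3′ on the strand of its gene, with the match in capitals, and those of Calr, Creld2, Trib3 and Chac1 show the element as its reverse complement. The sequences are from RefSeq.
Hspa5: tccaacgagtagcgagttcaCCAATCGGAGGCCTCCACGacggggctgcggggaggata
Calr: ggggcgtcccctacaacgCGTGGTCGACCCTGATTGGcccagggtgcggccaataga
Creld2: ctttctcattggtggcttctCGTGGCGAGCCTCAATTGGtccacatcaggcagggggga
Xbp1: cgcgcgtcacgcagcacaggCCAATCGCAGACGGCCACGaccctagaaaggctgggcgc
Herpud1: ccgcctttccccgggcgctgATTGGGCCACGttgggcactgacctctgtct
Trib3: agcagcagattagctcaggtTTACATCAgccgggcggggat
Chac1: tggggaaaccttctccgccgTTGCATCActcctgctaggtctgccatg
Asns, Psat1, Phgdh, Ddit3 and Atf4 had no match to any of the 4 elements in their windows.

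The 8 libraries held 7541 to 10670 cell barcodes each, and 65208 of the 69624 barcodes had at least 5000 UMIs and were used. These gave between 139656712 and 159685281 UMIs per library. Levels are in CPM, that is the UMIs of a gene summed over these cells, per 1000000 UMIs of the library. In such sums, fewer cells expressing a gene and less transcript per cell cannot be told apart. Fibroblastic markers were high, with 10 of 10 above a mean of 5 CPM and a summed level of 28714 to 48192 CPM. Of the macrophage and endothelial markers, 1 each reached that mean, and the defining Ptprc, Csf1r, Pecam1 and Kdr were under 1 CPM in every library. Of the chondrocyte markers 5 of 9 listed reached it, Col11a1 and Sox9 the highest of them, while Col2a1, Col9a1, Matn3 and Snorc were under 1 CPM everywhere. Of the osteoblast markers 3 of 9 listed reached it, Spp1, Runx2 and Alpl, while Sp7, Bglap, Dmp1 and Phex were under 1 CPM everywhere. Cells with a UMI of Mki67 or Top2a, genes of dividing cells, are called marked cells below. They made up 17.6, 19.2, 6.58 and 39.5% of cells at week 12 in CGRP, magnesium, zoledronate and control, and 50.4, 26.9, 23.7 and 36.7% at week 4. These shares depend on depth, with a median of 12742 to 20545 UMIs per cell by library. With every cell thinned to 5000 UMIs they ran from 4.16% in week 12 zoledronate to 37.6% in week 4 CGRP, the same ends as before thinning. Free RNA can also mark a cell, and no cell type known to lack both genes was at hand, so a marked cell is not shown to divide. Of 69087 distinct barcodes, 535 occurred in more than 1 library.

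A mean of at least 5 CPM over the 8 libraries was reached by 33 members, 22 ER and 11 Atf4-type, and by 7226 genes in all. The member that missed it was Manf, a secreted protein induced by ER stress, which ranged between 4.06 and 6.68 CPM with its highest value in week 4 magnesium. Ratios below are log2 ratios of (CPM + 1), and "1.5-fold" marks a log2 ratio of at least 0.585 in size. Brackets give 95% intervals for counting error, exact for the ratio of the 2 UMI sums. At this depth counting error is small, as for Trib3 in week 12 control, at 36.8 CPM with an exact Poisson interval of 35.8 to 37.8. It says nothing of the spread between rats or dishes, which was not measured. Levels are not compared between genes, because how well each transcript was captured was not measured.

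The core of the ER machinery was even across libraries. Hspa5, the main ER chaperone and a sentinel of the unfolded protein response, was at 674, 658, 718 and 645 CPM at week 12 in CGRP, magnesium, zoledronate and control. At week 4 it was at 788, 803, 747 and 759 CPM in the same order. In CPM every week 12 library lay below every week 4 library, yet the highest was only 1.24-fold the lowest. With DESeq2 size factors, another scaling of the libraries, week 12 zoledronate lay above week 4 zoledronate, so the weeks then overlapped. Xbp1, the transcription factor spliced by Ern1, was at 142, 152, 148 and 125 CPM at week 12, against 132, 143, 138 and 142 CPM at week 4. The weeks overlapped for Xbp1, and its highest library was 1.22-fold its lowest. Sec61b, a subunit of the channel through which proteins enter the ER, had the narrowest range of all members, 1037 to 1145 CPM.

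Over all 22 ER members tested, the median of the highest library over the lowest was 1.38-fold, against 1.42-fold over all 7226 genes. The 2 ER members that reached 2-fold were Atf6 and Dnajb9, where 17.0% of all genes did so. Atf6, the membrane-bound sensor and transcription factor, was at 26.4, 27.8, 29.6 and 20.1 CPM at week 12 in CGRP, magnesium, zoledronate and control. At week 4 it was at 34.7, 43.2, 40.6 and 42.7 CPM, so all 4 week 12 libraries were lower, and control was lowest of all. Dnajb9, a co-chaperone that hands Hspa5 to the sensor Ern1, was at 53.0, 48.1, 78.1 and 55.4 CPM at week 12, then 37.2, 48.8, 48.1 and 40.1 CPM at week 4. Its week 12 zoledronate library stood above the other 7. Ern1 itself was seen at under 1 CPM and was not tested.

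The remaining ER members moved within narrower limits. Among chaperones, Calr, a lectin that holds glycoproteins while they fold, ranged between 954 CPM in week 12 zoledronate and 1331 CPM in week 12 control. Hsp90b1, the ER form of the Hsp90 chaperones, ranged between 496 and 653 CPM. Canx, the membrane-bound partner of Calr, was between 380 and 454 CPM at week 12 and between 367 and 377 CPM at week 4, so it was the ER member with every week 12 library higher. Of the disulfide isomerases, Pdia4 (18.75 to 23.7 CPM at week 12, 24.7 to 30.8 at week 4) and Pdia6 (411.5 to 492 CPM at week 12, 507 to 599 at week 4) were lower in every week 12 library, while the weeks overlapped for Pdia3 (327 to 441 CPM). The co-chaperones Dnajb11 and Dnajc3 spanned 1.20-fold and 1.39-fold, and Sdf2l1, which works with Dnajb11, 1.15-fold. Hyou1, which helps Hspa5 release its client, spanned 1.37-fold.

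Degradation and entry showed no common direction. Herpud1, a membrane scaffold of the degradation complex, ranged between 155 CPM in week 12 control and 226 CPM in week 4 magnesium. Sel1l, the adaptor of the ubiquitin ligase Syvn1, was highest in week 12 zoledronate at 85.03 CPM and lowest in week 4 CGRP at 55.6 CPM. Syvn1 had its extremes in the same 2 libraries, at 17.9 and 13.3 CPM. Edem1, which marks misfolded glycoproteins for removal, ranged between 52.3 and 79.0 CPM, and Derl1, part of the exit channel, between 156 and 189 CPM. Ssr1, a subunit of the complex beside the entry channel, ranged between 150 CPM in week 12 zoledronate and 218 CPM in week 12 control. Creld2, a secreted protein raised by ER stress, had the third widest range of the ER members, between 28.2 CPM in week 12 zoledronate and 53.6 CPM in week 4 CGRP.

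**Figure D1:**
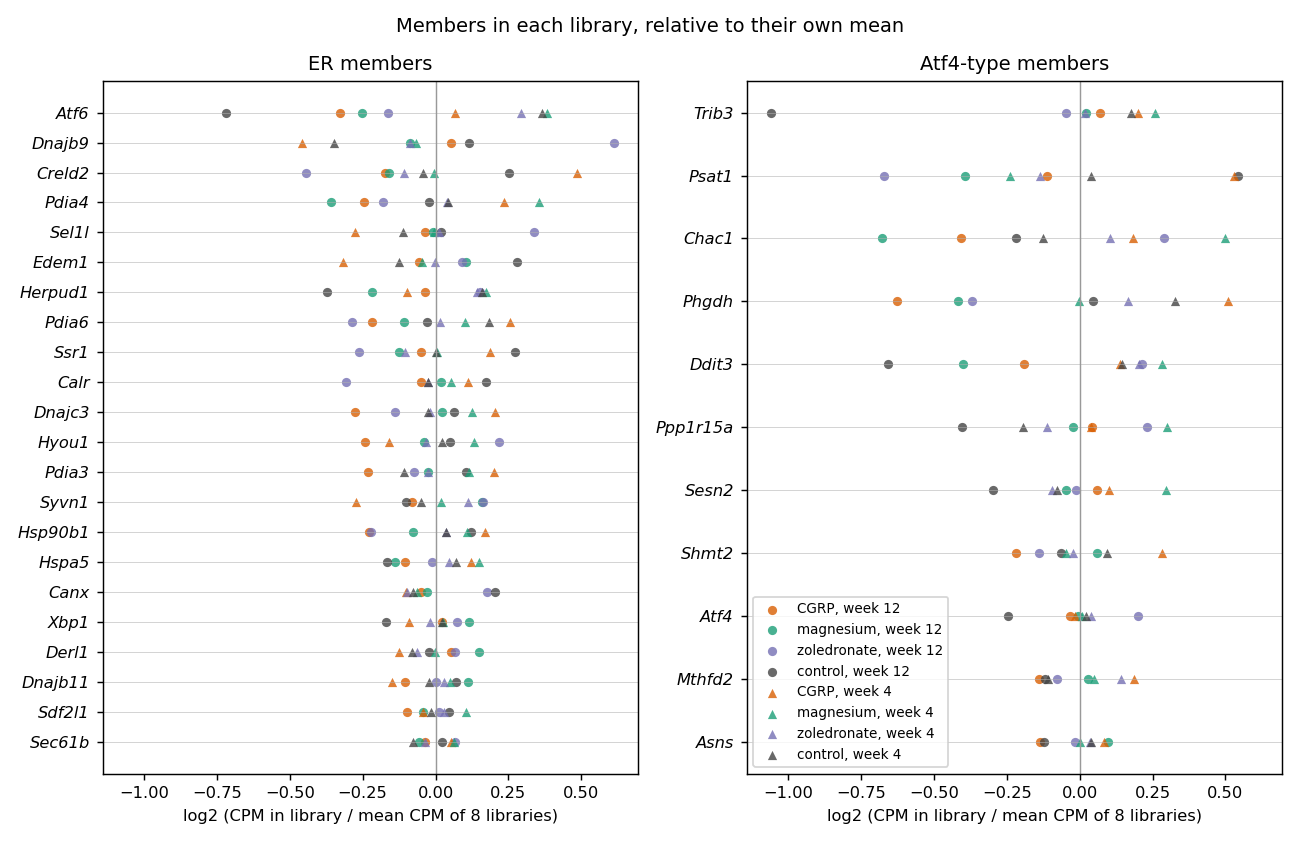
Each point is 1 library (circles week 12, triangles week 4; colours are treatments), placed by the log2 of a member's CPM over its mean CPM of the 8 libraries, for 22 ER members (left) and 11 Atf4-type members (right). Members run down by range: the widest were Atf6 and Dnajb9 on the left and Trib3, Psat1, Chac1 and Phgdh on the right, and Sec61b and Asns were the narrowest of their lists.

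The Atf4-type members spread more widely. Their median of highest over lowest library was 1.62-fold, and 4 of 11 reached 2-fold, beside the 17.0% of all genes. Atf4 itself was at 551, 561, 647 and 475 CPM at week 12 in CGRP, magnesium, zoledronate and control, and at 557, 567, 579 and 573 CPM at week 4. The week 4 libraries thus lay close together, and both extremes were week 12 libraries, zoledronate the highest and control the lowest. Ddit3, a transcription factor tied to cell death under prolonged stress, was at 118, 102, 156 and 85.3 CPM at week 12, then 148, 164, 155 and 149 CPM at week 4. Among week 12 libraries only zoledronate reached the week 4 range. Trib3, a pseudokinase that restrains Atf4, was at 80.4, 77.8, 74.2 and 36.8 CPM at week 12, then 88.2, 91.7, 77.6 and 86.7 CPM at week 4. Its range rests on the week 12 control library, since the other 7 lay between 74.2 and 91.7 CPM.

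Chac1, an enzyme that breaks down glutathione, was at 44.2, 36.6, 71.6 and 50.3 CPM at week 12 in CGRP, magnesium, zoledronate and control. At week 4 it was at 66.5, 82.7, 62.9 and 53.7 CPM. The extremes were both magnesium libraries, week 12 the lowest and week 4 the highest. Asns, which makes asparagine and is a classic target of the amino acid response, was at 101, 118, 109.5 and 102 CPM at week 12, then 117, 111, 113.5 and 114 CPM at week 4. Its 1.17-fold range was the narrowest of the Atf4-type members, so it did not follow Trib3 or Chac1. Ppp1r15a, a phosphatase subunit that restarts translation, and Sesn2, which restrains mTORC1 when leucine is short, were both highest in week 4 magnesium and lowest in week 12 control, at 104.5 and 64.2 CPM for Ppp1r15a and at 41.7 and 27.65 CPM for Sesn2.

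The enzymes of serine and one-carbon metabolism had another order. Psat1, the second enzyme of serine synthesis, was at 79.0, 65.1, 53.6 and 124 CPM at week 12 in CGRP, magnesium, zoledronate and control, and at 123, 72.4, 77.7 and 87.7 CPM at week 4. It was thus highest in week 12 control and week 4 CGRP, and week 12 control was where Trib3, Ddit3 and Atf4 were lowest. Phgdh, which starts serine synthesis, was at 57.3, 66.2, 68.4 and 91.2 CPM at week 12, then 126, 88.1, 99.1 and 111 CPM at week 4. Shmt2 and Mthfd2, which carry one-carbon units in mitochondria, were like Phgdh highest in week 4 CGRP, at 107.7 and 185 CPM, and lowest in week 12 CGRP, at 76.1 and 147 CPM.

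**Figure D2:**
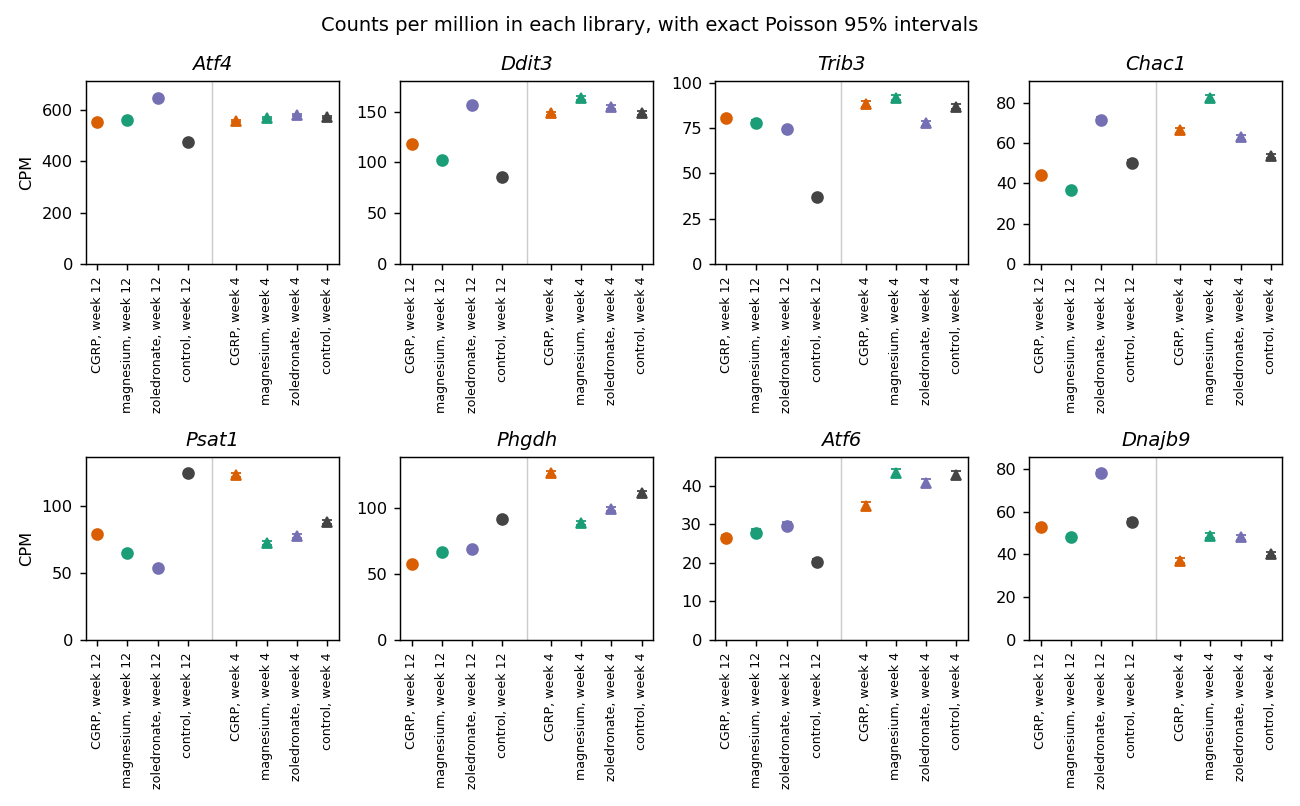
CPM of 8 members in each library (circles week 12, triangles week 4), on linear axes that start at 0, with exact Poisson 95% intervals that are mostly smaller than the symbols. Trib3 is low in week 12 control at 36.8 CPM while Psat1 is high there at 124 CPM, and Chac1 and Dnajb9 are high in week 12 zoledronate.

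Between week 12 zoledronate and week 12 control, 5 members were past 1.5-fold, and 3 in cells without Mki67 or Top2a. Trib3 was higher in zoledronate, at 74.2 CPM against 36.8 CPM in control (log2 ratio 0.99; 0.96 to 1.06), as were Ddit3, at 156 against 85.3 CPM (0.86; 0.84 to 0.90), and Ppp1r15a, at 99.5 against 64.2 CPM (0.62; 0.60 to 0.67). Psat1 was lower in zoledronate, at 53.6 CPM against 124 CPM in control (-1.20; -1.25 to -1.18). So 3 of 11 Atf4-type members were higher, where 5.34% of all genes were, and 1 of 11 was lower, where 12.1% were (17.4% either way). Of the 22 ER members, Creld2 alone passed 1.5-fold, lower in zoledronate at 28.2 CPM against 45.6 CPM in control (-0.68; -0.75 to -0.64).

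This comparison depended on the scaling. The median log2 ratio was -0.03 over ER members, 0.28 over Atf4-type members and -0.12 over all genes. With TMM factors the same medians were 0.08, 0.39 and -0.01, so the ER median changed sign, and with DESeq2 size factors they were 0.10, 0.41 and 0.01. All genes split into 386 higher and 873 lower as reported, 557 and 642 with TMM factors, and 589 and 612 with DESeq2 size factors. Under either of these scalings Atf6, Dnajb9, Herpud1 and Chac1 also passed 1.5-fold, higher in zoledronate, and Creld2 no longer did. The calls of Trib3, Ddit3, Ppp1r15a and Psat1 held under both.

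Genes of dividing cells differed in this comparison as well. The 5 genes of dividing cells summed to 74.5 CPM in week 12 zoledronate and 480 CPM in week 12 control. Taken in cells without a UMI of Mki67 or Top2a, the log2 ratio was 0.80 for Trib3, 0.68 for Ddit3 and -0.88 for Psat1, all still past 1.5-fold. In those cells it was 0.49 for Ppp1r15a and -0.50 for Creld2, which were then under the threshold. The genes for secreted cargo, collagens and other matrix proteins that the ER folds, were higher in zoledronate for 9 of 9 and by 1.5-fold for 6, with a summed 61726 CPM against 37045 CPM in control, while 0 of 22 further ER folding genes passed 1.5-fold either way. Fibroblastic markers, which share the collagens, summed to 48192 CPM in zoledronate and 29476 CPM in control, and their part in the members' ratios was not tested. Elsewhere the 22 further ER folding genes did pass: 2 were higher in magnesium than in zoledronate at week 12, beside 7.79% of all genes. Between the weeks 2 were lower at week 12 in CGRP, beside 7.32%, and 1 passed in each other treatment, beside 9.33 to 12.5% either way.

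Further genes of the Atf4 branch were set beside the members. Of 16 tested, 12 were higher in week 12 zoledronate than in week 12 control, where 36.8% of all genes were, and 2 were so by 1.5-fold. Ddit4, an inhibitor of mTORC1, was furthest apart at 55.4 CPM against 13.5 CPM (log2 ratio 1.96), and Mthfd1l, a mitochondrial one-carbon enzyme, was lower (-1.07). Of 8 amino acid transporters, 7 were higher and 2 by 1.5-fold, Slc6a9 (0.92) and Slc3a2 (0.71). Of 12 tRNA synthetases, 9 were lower, where 63.2% of all genes were, and 0 passed 1.5-fold. These shares of all genes were 48.7 and 51.3% with TMM factors, under which 13 of the 16 and 7 of the 8 were higher and 8 of the 12 lower.

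At week 4, no member of either list passed 1.5-fold between zoledronate and control, where 1.56% of all genes were higher in zoledronate and 1.15% lower (2.71% either way). Trib3 had 77.6 CPM in zoledronate against 86.7 CPM in control, Ddit3 had 155 against 149 CPM, and Psat1 had 77.7 against 87.7 CPM. The median log2 ratio lay within 0.01 of 0 for ER members, Atf4-type members and all genes alike. The 5 genes of dividing cells were each lower in zoledronate by 1.5-fold, with a summed 331 CPM against 556 CPM in control, and marked cells were 23.7% of cells in zoledronate and 36.7% in control. Whether the zoledronate to control ratio differs between the weeks cannot be tested with 1 library per group.

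CGRP was given on top of zoledronate and is set against zoledronate. The zoledronate libraries also serve the magnesium comparisons and are themselves set against control, so a high or low zoledronate value enters all 3. At week 12 the member past 1.5-fold was Chac1, lower in CGRP at 44.2 CPM against 71.6 CPM in zoledronate (log2 ratio -0.68; -0.74 to -0.65), beside 4.94% of all genes lower by as much and 6.02% higher (11.0% either way). The ER members leaned low, with 18 of 22 below 0, where 48.6% of all genes were, and a median of -0.11 against 0.01 over all genes, and the sign of that median held under TMM and DESeq2 scaling. Of the Atf4-type members, 8 of 11 were below 0, with a median of -0.12. Furthest apart among ER members was Dnajb9 at 53.0 CPM in CGRP against 78.1 CPM in zoledronate, a difference under 1.5-fold. All 8 amino acid transporters were lower in CGRP under each scaling, none by 1.5-fold, with a median of -0.19. The genes of dividing cells summed to 218 CPM in CGRP and 74.5 CPM in zoledronate.

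At week 4, Psat1 was higher in CGRP at 123 CPM against 77.7 CPM in zoledronate (0.66; 0.63 to 0.70). It was the member past 1.5-fold, beside 4.30% of all genes higher and 5.90% lower (10.2% either way). Creld2 was just short, at 53.6 CPM in CGRP and 35.5 CPM in zoledronate (0.58), and passed under 5 of the 7 alternatives. Phgdh was at 126 and 99.1 CPM and Shmt2 at 107.7 and 87.0 CPM, both higher in CGRP but under 1.5-fold. Marked cells were 50.4% of cells in CGRP and 23.7% in zoledronate, and in cells without Mki67 or Top2a the Psat1 ratio was 0.48, under the threshold. Of 16 other Atf4 branch genes, 1 was higher in CGRP by 1.5-fold, Atf3, a stress-induced transcription factor (1.32), and 3 were lower, Ddit4 the furthest (-0.94). Of 5 immediate early genes, 3 were higher by 1.5-fold. Secreted cargo was lower for 9 of 9 genes, 6 of them by 1.5-fold. The median was -0.03 over ER members, 0.15 over Atf4-type members and -0.01 over all genes, and that of ER members was 0.00 under DESeq2 scaling.

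Magnesium was likewise set against zoledronate. At week 12, 3 members were lower in magnesium, beside 4.54% of all genes, and 0 were higher, beside 7.79% (12.3% either way). Chac1 was at 36.6 CPM in magnesium and 71.6 CPM in zoledronate (log2 ratio -0.95; -1.01 to -0.92), Dnajb9 at 48.1 and 78.1 CPM (-0.69; -0.74 to -0.66), and Ddit3 at 102 and 156 CPM (-0.61; -0.64 to -0.58). In cells without Mki67 or Top2a, Ddit3 was at -0.54 and no longer past 1.5-fold, and the other two calls held. The median was 0.01 over ER members, -0.03 over Atf4-type members and 0.07 over all genes, and that of ER members turned negative under TMM and DESeq2 scaling (both -0.05).

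At week 4, 0 of 33 members passed 1.5-fold between magnesium and zoledronate, where 0.595% of all genes were higher and 0.567% lower (1.16% either way). The libraries were close, with 95% of all genes between -0.28 and 0.26, and against that narrow spread Ppp1r15a (0.41), Chac1 (0.39), Sesn2 (0.38) and Pdia4 (0.30) stood above it, all higher in magnesium. Ppp1r15a was at 104.5 CPM in magnesium and 78.5 CPM in zoledronate, and Chac1 at 82.7 and 62.9 CPM. Of the 22 ER members, 19 were above 0, where 46.8% of all genes were, with a median of 0.08, while the Atf4-type median was -0.02, and neither sign changed with the scaling. Of 16 other Atf4 branch genes, Atf3 alone passed 1.5-fold, higher in magnesium (1.45), and 11 were below 0. Of 5 immediate early genes, which respond within minutes to stimulation, 3 were higher in magnesium by 1.5-fold. Their part in the members' ratios was not tested.

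**Figure D3:**
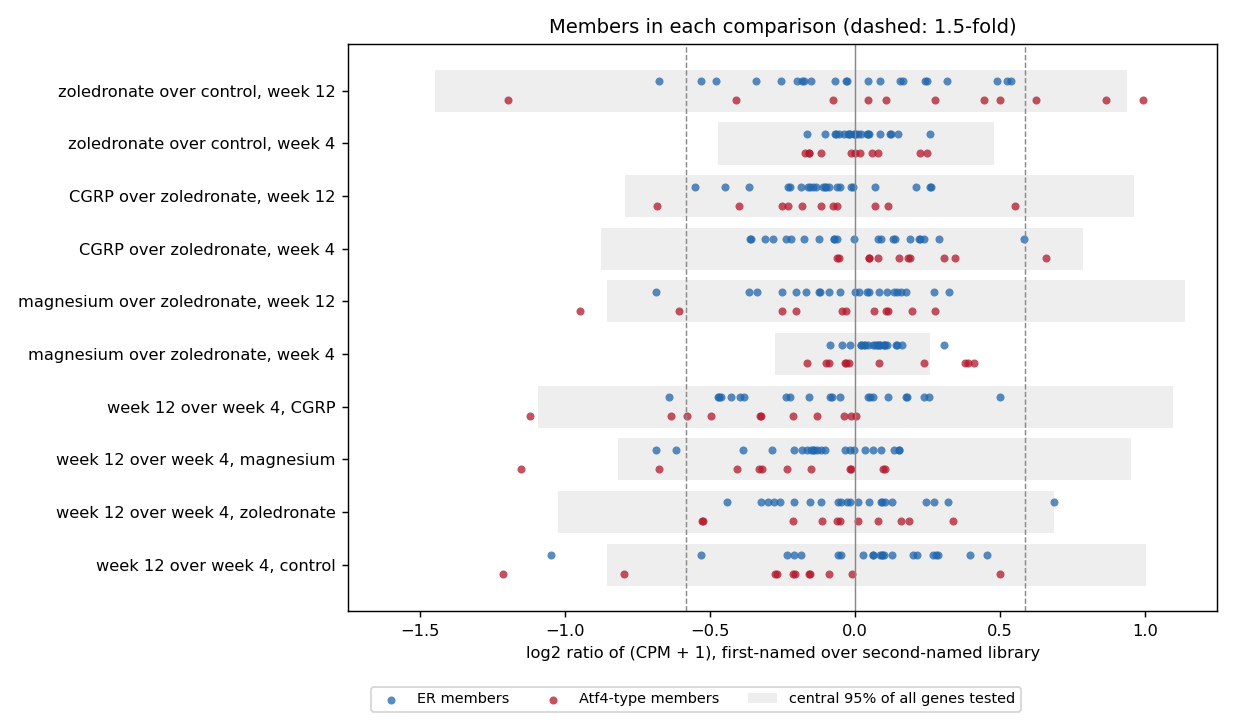
Log2 ratio of (CPM + 1) of each ER member (blue) and Atf4-type member (red) in the 10 comparisons, with the first-named library over the second; grey bars hold the central 95% of all 7226 genes and dashed lines mark 1.5-fold. Week 12 zoledronate over control has Trib3 at 0.99 and Psat1 at -1.20 at its ends, and the week 12 over week 4 comparisons have Trib3 at -1.21, Chac1 at -1.15, Phgdh at -1.12 and Atf6 at -1.05.

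Week 12 was compared with week 4 within each treatment. Of the 11 Atf4-type members, 10 lay below 0 in CGRP, 9 in magnesium and 10 in control, where 55.0, 49.3 and 42.4% of all genes did. In zoledronate 6 of 11 did, beside 59.2% of all genes, so no lean is seen there. The medians were -0.33, -0.24, -0.05 and -0.21 in CGRP, magnesium, zoledronate and control, against -0.04, 0.00, -0.05 and 0.05 over all genes. The sign held under TMM and DESeq2 scaling in CGRP, magnesium and control, and in zoledronate the median was 0.02 under DESeq2 scaling. The weeks nevertheless overlapped for each of the 11 Atf4-type members, as they did for most genes: 928 of all 7226 did not overlap.

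In CGRP, Phgdh was lower at week 12, at 57.3 CPM against 126 CPM at week 4 (-1.12; -1.17 to -1.10), as were Creld2, at 33.9 against 53.6 CPM (-0.64), and Psat1, at 79.0 against 123 CPM (-0.64). The share of all genes lower by 1.5-fold was 7.32%, and 7.10% were higher, where no member was (14.4% either way). In cells without Mki67 or Top2a, Phgdh was still past the threshold at -0.91, while Creld2 was at -0.57 and Psat1 at -0.30. Chac1 passed 1.5-fold in those cells, lower at week 12 with 46.0 CPM against 75.55 CPM at week 4. All 12 tRNA synthetases, which charge tRNA with amino acids and include known Atf4 targets, were lower at week 12 in CGRP (median -0.29), as all 12 were in zoledronate (median -0.26), where 55.0 and 59.2% of all genes were. In magnesium 9 of 12 were lower (median -0.11), and in control 6 were lower and 6 higher (median -0.06). With TMM factors the count lower was 10 in CGRP, 12 in zoledronate, 9 in magnesium and 9 in control. Of these genes, Eprs was furthest apart, at -0.72 in CGRP and -0.66 in zoledronate.

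In magnesium, 4 members were lower at week 12, beside 4.89% of all genes, and 0 were higher, beside 5.76% (10.6% either way). These were Chac1, at 36.6 CPM against 82.7 CPM at week 4 (-1.15; -1.22 to -1.13), Pdia4, at 18.75 against 30.8 CPM (-0.69), Ddit3, at 102 against 164 CPM (-0.68), and Atf6, at 27.8 against 43.2 CPM (-0.62). All of them held in cells without Mki67 or Top2a. Of 16 other Atf4 branch genes, 1 was lower at week 12 by 1.5-fold, Atf3 (-1.86), and 2 were higher, Cebpb, a transcription factor that partners with Atf4, the furthest (0.87). Of the 16, 9 lay below 0, beside 49.3% of all genes.

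In zoledronate the call was Dnajb9, higher at week 12 with 78.1 CPM against 48.1 CPM at week 4 (0.69; 0.66 to 0.74), beside 3.18% of all genes higher and 6.14% lower (9.33% either way). In control, 3 members were lower at week 12, beside 4.61% of all genes, and 0 were higher, beside 7.86% (12.5% either way). Trib3 was at 36.8 CPM at week 12 and 86.7 CPM at week 4 (-1.21; -1.28 to -1.19), Atf6 at 20.1 and 42.7 CPM (-1.05; -1.15 to -1.02), and Ddit3 at 85.3 and 149 CPM (-0.80; -0.84 to -0.77). In cells without Mki67 or Top2a, Psat1 passed 1.5-fold as well, higher at week 12 with 87.0 CPM against 56.75 CPM at week 4. Under TMM and DESeq2 scaling Herpud1 passed too, lower at week 12. Of 16 other Atf4 branch genes, 2 were lower at week 12 in control by 1.5-fold, Ddit4 (-1.61) and Nupr1, a stress-induced chromatin protein (-0.93), and 1 was higher. Over ER members the week 12 over week 4 medians were -0.08 in CGRP, -0.13 in magnesium, -0.02 in zoledronate and 0.09 in control, and that of zoledronate turned positive under TMM (0.03) and DESeq2 scaling (0.05).

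Across treatments, the weeks did not overlap in CPM for 5 of 22 ER members. All 4 week 12 libraries were lower for Hspa5, Pdia4, Pdia6 and Atf6, beside 6.24% of all genes, and higher for Canx, beside 6.60%. For Hspa5 this depended on the scaling, since week 12 zoledronate lay above week 4 zoledronate with DESeq2 size factors. Summed levels of genes of dividing cells and of cell type markers differed between the weeks as well, which does not by itself show a difference in cell make-up. The 5 genes of dividing cells summed to 218, 206, 74.5 and 480 CPM at week 12 in CGRP, magnesium, zoledronate and control, and to 740, 360, 331 and 556 CPM at week 4. Osteoblast markers summed to 323, 273, 405 and 327 CPM at week 12 in CGRP, magnesium, zoledronate and control, and to 776, 1183, 790 and 779 CPM at week 4, most of it Spp1, with 9 of 10 listed and Sp7, Bglap, Dmp1 and Phex under 1 CPM throughout. Chondrocyte markers summed to 903, 305, 2069 and 1252 CPM at week 12 and to 2058, 2804, 2368 and 2522 CPM at week 4, most of it Col11a1, with 9 of 10 listed. The part of cell make-up in the members' levels was not tested.

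The marked cells offered a comparison inside each library, added once the ranges above were known. They were set against the other cells of the same library, 610 to 4059 cells against 3996 to 8668, so treatment and week are shared. How many rats or dishes stand behind a library is not given. Most genes had 1 direction throughout: 44.2% of all genes were higher in marked cells in all 8 libraries and 23.0% lower. Psat1 was at 141.5, 116, 130 and 174 CPM in marked cells at week 12 in CGRP, magnesium, zoledronate and control, against 61.3, 50.02, 46.7 and 87.0 CPM in other cells. At week 4 it was at 164.5, 128.5, 141 and 132 CPM in marked cells, against 75.95, 47.9, 54.1 and 56.75 CPM in other cells. It was more than 1.5-fold higher in marked cells in 8 of 8 libraries, with a median log2 ratio of 1.20.

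The other enzymes of serine and one-carbon metabolism were also higher in marked cells in all 8 libraries, with median log2 ratios of 0.71 for Phgdh, 0.53 for Shmt2 and 0.31 for Mthfd2. Stress feedback genes of the same branch were lower in all 8: Ddit3 (median -0.43), Ppp1r15a (-0.40), Chac1 (-0.35), Trib3 (-0.29) and Sesn2 (-0.18). In week 4 control Sesn2 was at -0.039 (-0.125 to 0.043), so its sign was not resolved from counting error there. Atf4 and Asns were higher in 4 libraries and lower in 4. Of the 11 Atf4-type members, 4 were thus higher in all 8 libraries, a share below that of all genes, and 5 were lower in all 8.

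Ddit3 was at 89.4, 77.4, 115 and 66.4 CPM in marked cells at week 12 in CGRP, magnesium, zoledronate and control, against 126, 109, 160 and 99.5 CPM in other cells. At week 4 it was at 137, 143, 125.5 and 129 CPM in marked cells, against 161.5, 173, 166 and 163 CPM in other cells. The order of libraries at week 12, with zoledronate highest and control lowest, was the same in marked and in other cells.

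Of the 22 ER members, 12 were higher in marked cells in all 8 libraries, beside 44.2% of all genes, and 5 were lower in all 8, beside 23.0%. Counts so near those of all genes say nothing particular about ER members, and the values follow as a description. Creld2 led those higher with a median log2 ratio of 0.70, and the others lay between 0.04 for Pdia3 and 0.28 for Sdf2l1. Those lower in all 8 were Herpud1 (-0.29), Dnajb9 (-0.27), Hspa5 (-0.15), Sec61b (-0.13) and Sel1l (-0.11). By its median Hspa5 thus differed in sign from Hsp90b1 (0.24) and Calr (0.11), with which it was correlated between cells. The sign was not resolved from counting error in every library. Hspa5 was at -0.001 (-0.022 to 0.020) in week 12 magnesium and -0.006 (-0.025 to 0.014) in week 12 control. Calr was at 0.001 (-0.013 to 0.015) in week 4 control. Intervals also held 0 for Canx and Sel1l in week 4 magnesium and week 4 control, and for Pdia3 in week 4 CGRP and week 4 control. Marked cells were deeper, with a median of 17146 to 23718 UMIs against 12063 to 19476 in other cells. Restricted to cells with 10000 to 20000 UMIs, 11 ER and 4 Atf4-type members were higher in all 8 libraries, beside 37.5% of all genes, and 5 and 4 lower, beside 19.4%. Pdia3 was then higher in 6, Hspa5 lower in 6 and Sesn2 lower in 7, while Syvn1 joined those lower in 8.

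**Figure D4:**
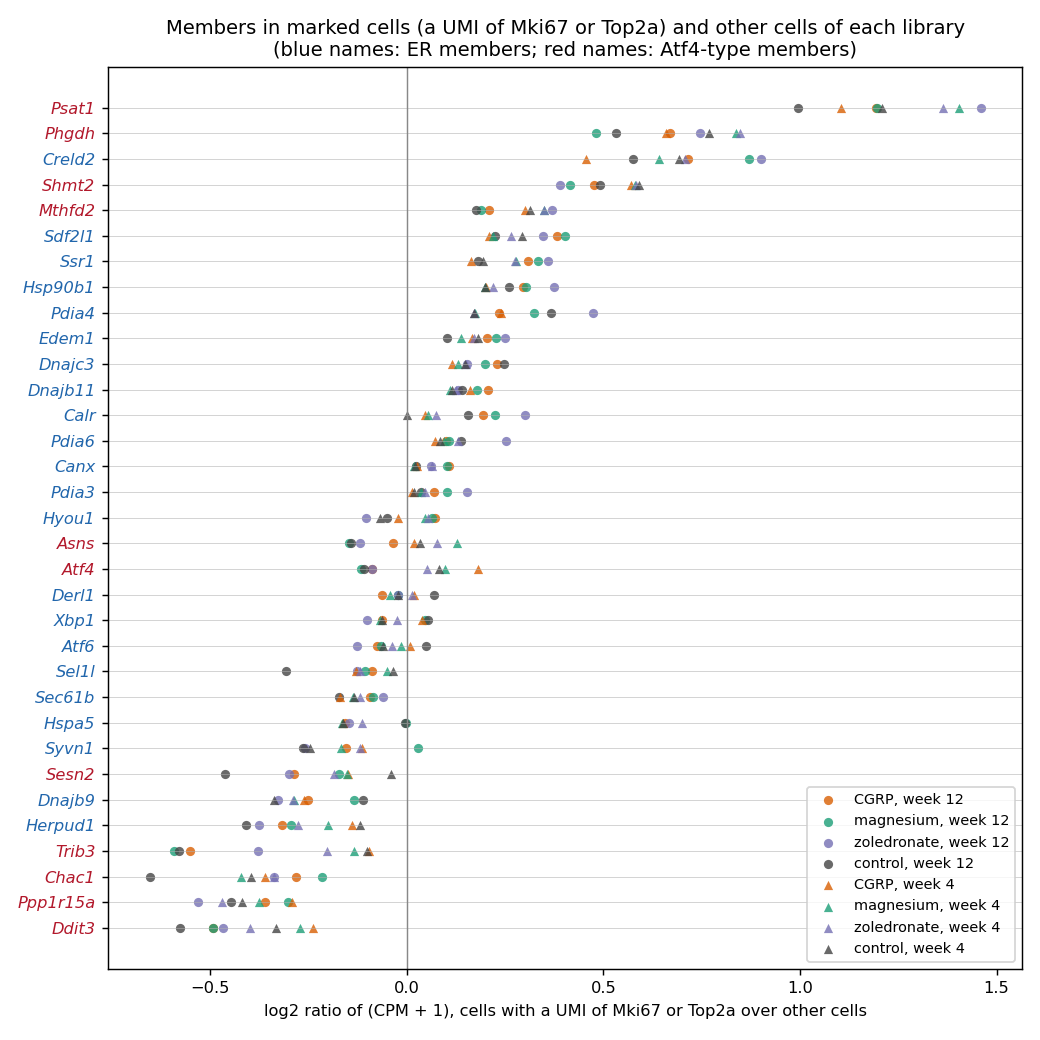
Log2 ratio of (CPM + 1) of each member in cells with a UMI of Mki67 or Top2a over the other cells of the same library; each point is 1 of 8 libraries. Psat1, Phgdh, Creld2 and Shmt2 lie right of 0 in every library and Ddit3, Ppp1r15a, Chac1 and Trib3 left of 0.

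Variation between cells was read after each cell had been thinned to 5000 UMIs, so that depth was equal. The Fano factor (variance over mean, near 1 for counting noise alone) was highest for Calr, with a median of 2.07 over the libraries, then Hspa5 (1.86) and Hsp90b1 (1.52). Ddit3 led the Atf4-type members at 1.31, followed by Chac1 (1.20) and Psat1 (1.18). Syvn1 (0.99), Derl1 (1.01) and Edem1 (1.01) were near counting noise. The factor also tends to rise with the mean count. In week 12 CGRP that mean was 5.82 UMIs per thinned cell for Calr and 0.0745 for Syvn1. The order of genes is thus not an order of relative variation, and a value near 1 at a low mean does not show even expression. Creld2 had a median of 1.07 but reached 1.70 in 1 library. A UMI of Ddit3 was seen in 33.3 to 51.9% of thinned cells and 69.2 to 89.3% of cells before thinning, and one of Trib3 in 16.5 to 36.5% and 41.5 to 80.2%. No cell type known to lack these genes was at hand to show how much of such shares free RNA gives.

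Correlations between cells were weak, and highest between ER members. The 12 highest pairwise correlations over thinned cells, each within a library of 6809 to 10370 cells, were all between ER members. Calr and Pdia6 had a median Pearson's r of 0.24 over the libraries (0.22 to 0.31), Hsp90b1 and Calr 0.23, Hspa5 and Calr 0.21, and Hspa5 and Hsp90b1 0.17. Among Atf4-type members the highest was Psat1 with Phgdh at 0.10, then Ddit3 with Ppp1r15a and with Trib3, both at 0.06. Hspa5 with Ddit3 was at 0.00. Few UMIs per cell also lower r. Mean levels were 1180 CPM for Calr and 724 CPM for Hspa5, against 564 CPM for Atf4, 135 CPM for Ddit3 and 85.4 CPM for Psat1. Each library had 231 pairs of ER members and 55 of Atf4-type members, so the highest values do not set the lists apart. Values near 0 in sparse counts are no finding, and cells of a library were prepared together, so these are descriptions.

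**Figure D5:**
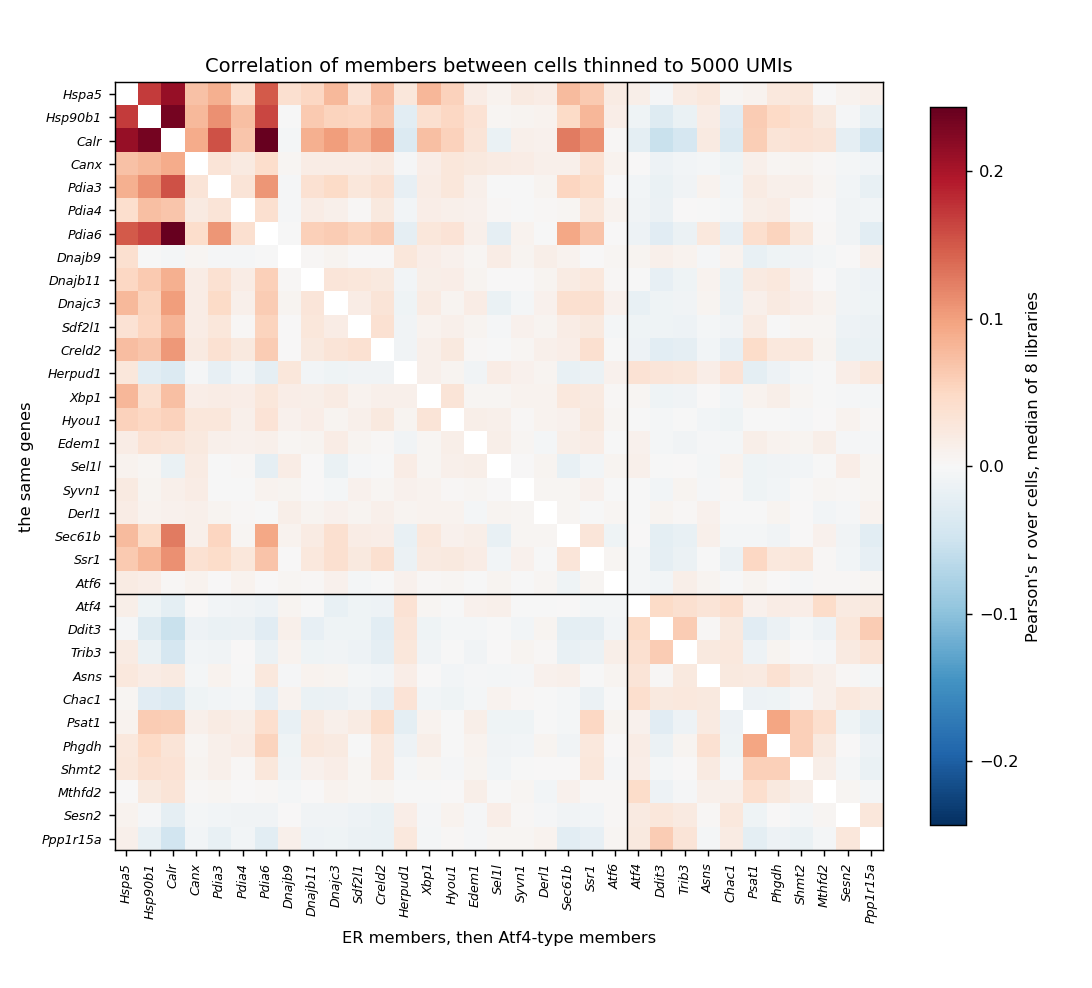
Pearson's r between members over cells thinned to 5000 UMIs, as the median of 8 libraries, with the 22 ER members first and the 11 Atf4-type members after them (black lines part the lists; the diagonal is blank). Toward the top left, the pairs among Hspa5, Hsp90b1, Calr and Pdia6 hold values of 0.15 to 0.24 and Calr with Pdia3 is at 0.16, and most other pairs are near 0.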

How the data were processed

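The authors deposited UMI counts as whole numbers, in 8 tables of genes by barcodes. STAR and the rat build Rnor_6.0 are named in the submitters' processing notes, and per the labels the libraries are 10x Chromium V3 libraries of 10000 cells by design. The sources used here do not give the STAR version, the annotation, strand handling, any filter on barcodes or genes, or whether doublets were removed before deposit. No doublet caller was run here, so doublets are treated as present. No mitochondrially encoded gene was listed.

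Barcodes with at least 5000 UMIs were kept (93.7%), and UMIs were summed per gene and library and scaled to CPM, with 139656712 to 159685281 UMIs per library. Genes needed a mean of 5 CPM over the 8 libraries. Each of the 10 comparisons is a log2 ratio of (CPM + 1) between 2 libraries. As each group is 1 library, no test was run and no standard error given, and intervals (exact Poisson, and Clopper-Pearson for ratios, 95%) cover counting error only. Each UMI is taken as an independent draw. Thinning used a fixed random seed. The calculations were tested on simulated data.

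Members, gene lists and the split by Mki67 or Top2a were chosen with earlier results of these data known. Levels in every library are given for Hspa5, Xbp1, Atf6, Atf4, Ddit3 and Asns and for members whose highest library was at least 2-fold their lowest, on the CPM + 1 scale, and the rest by range. Of each further list at most the 2 genes furthest apart in a comparison are named. Alternatives were all barcodes, TMM factors (edgeR 4.0.16), DESeq2 1.42.0 size factors, a pseudocount of 0.1 CPM, no filter on low values, cells weighted equally, and cells without Mki67 or Top2a. Both packages gave scaling factors for the UMI counts and no test. RefSeq promoters (GRCr8) were used for sequence only, since the counts are on another build.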

Additional observations from a re-analysis of the deposited data

How the results depend on the processing

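Each value rests on 1 library per group, so the spread between rats, dishes and libraries is unknown and no alternative can stand in for it. No paired analysis was possible because each group is 1 library and the labels give no replicate numbers. Over the 20 counts of members past 1.5-fold (10 comparisons, 2 lists), no filter on low values and all barcodes each changed 1, a pseudocount of 0.1 CPM and cells weighted equally each 2, TMM factors and DESeq2 size factors each 4, and cells without Mki67 or Top2a 6. Changes of more than 1.5 times follow. For ER members in zoledronate over control at week 12, the count of 1 was 3 with TMM factors, 3 with DESeq2 size factors and 0 in cells without Mki67 or Top2a. For ER members in CGRP over zoledronate at week 4, the count of 0 was 1 with all barcodes, TMM factors, DESeq2 size factors, the pseudocount of 0.1 CPM and cells weighted equally, the gene being Creld2 each time. For ER members in week 12 over week 4 the count of 1 was 2 in control with TMM factors and 2 with DESeq2 size factors, and in CGRP it was 0 in cells without Mki67 or Top2a. For Atf4-type members in those cells, the count of 1 in CGRP over zoledronate at week 4 was 0, and the count of 2 in magnesium over zoledronate at week 12 was 1. Of the 21 calls of members over all comparisons, TMM and DESeq2 scaling each shared 20 and added 6, and cells without Mki67 or Top2a shared 15 and added 2. These 2 were Chac1 in CGRP and Psat1 in control, both in week 12 over week 4. No called value changed sign under any of the 7 alternatives. The causes of these moves were not tested.

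Further settings were chosen after seeing the data, for the split into marked and other cells. With all barcodes, Hspa5 was lower in marked cells in 8 libraries, as reported, and in 6 when Cenpf, Ccnb1 or Prc1 marked the cells. Psat1 was higher in 8 libraries and Ddit3 lower in 8 under each of these settings, with median log2 ratios of 1.12 to 1.26 for Psat1 and -0.43 to -0.29 for Ddit3.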

Other observations

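Of 7 genes tested from a list of stress sensors, kinases and related factors, 0 passed 1.5-fold in any comparison of treatments. Between 1.16 and 17.4% of all genes did so in either direction. In zoledronate over control at week 12, 5 of the 7 were lower, beside 63.2% of all genes, with a median log2 ratio of -0.46 against -0.12 over all genes, and the median was -0.35 with TMM factors and -0.33 with DESeq2 size factors. Eif2ak2 (-0.55) and Eif2ak4 (-0.48) were furthest apart. The member Atf6 went the other way there, with 29.6 CPM in zoledronate against 20.1 CPM in control (0.54), and passed 1.5-fold under both other scalings. Between the weeks, Creb3l2, an ER-bound transcription factor of secretory cells, was lower at week 12 in CGRP (log2 ratio -0.83), and its relative Creb3l1, known for its role in collagen secretion by osteoblasts in mice, was lower at week 12 in control (-1.06). Of 19 further genes of the translocon and ER-associated degradation, 0 passed 1.5-fold between treatments, and between the weeks Sec61g was higher at week 12 in zoledronate (0.68) and Ssr3 in control (0.60).

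Chaperones of the cytosol were set beside those of the ER. Of 5 cytosolic heat shock genes, 5 were lower in zoledronate than in control at week 12, where 4570 of all 7226 genes were. Hsp90aa1 was furthest apart at -1.07. At that week 5 were higher in magnesium than in zoledronate, where 4323 of all genes were, with Hspa1a at 1.18. Both counts use the same zoledronate library. Between week 12 and week 4 the heat shock genes had no common direction. At week 12, 4 of 5 were lower in CGRP (median -0.30) and 2 in magnesium (0.09). In zoledronate 4 were lower (-0.06, and 0.01 with DESeq2 size factors), and in control 1 was (0.53). Of all 7226 genes, 3975, 3560, 4275 and 3065 were lower at week 12 in CGRP, magnesium, zoledronate and control. Hspa1a, an inducible chaperone of the cytosol, was higher at week 12 in CGRP (1.06), magnesium (1.92), zoledronate (0.36) and control (1.19), against the other listed genes in CGRP and zoledronate.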
